A study of Mus musculus with 10 samples.

Results

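The genes described here are 10 tetraspanins of the blood cell surface, *Cd53*, *Cd9*, *Cd37*, *Cd63*, *Cd81*, *Cd82*, *Cd151*, *Tspan32*, *Tspan13* and *Tspan33*, out of 26146 genes in the count table of hematopoietic stem cells (HSCs) of mice lacking the transcriptional co-regulator *Cited2*. They were taken by gene symbol. *Cd53* was selected on its measured difference between the genotypes in the same libraries, and the others were chosen by family and by their presence in blood cells with the results known, so their differences between the genotypes are given as a description. For them, the fold changes, intervals and calls of the fit over all genes describe the libraries at hand and support nothing. HSCs were sorted as LSKCD48-CD150+ cells (lineage-negative, Sca-1 and c-Kit positive), and RNA was sequenced in bulk, with 1 library per mouse and 5 mice per genotype. The Cited2CTL mice, called wild type in the labels, carried *Cited2* fl/fl alleles without Cre. The Cited2CKO mice were *Cited2* fl/fl;*Vav-iCre*, in which the *Vav* promoter drives Cre across the hematopoietic system from shortly after HSCs arise, so that every blood lineage and not HSCs alone carries the deletion. All mice were on the C57BL/6J background and were between 8 and 12 weeks of age.

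Tetraspanins are small proteins that cross the membrane several times and gather other membrane proteins, such as integrins, growth factor receptors, immunoglobulin superfamily proteins and proteases, into patches of the cell surface and of endosomes. By doing so they set where these partners sit, how they cluster and how fast they are taken up or shed. *Cd53*, *Cd37* and *Tspan32* are largely restricted to blood cells, whereas *Cd9*, *Cd81*, *Cd82*, *Cd151* and *Cd63* are found in many tissues, and *Cd63*, *Cd81* and *Cd9* are widely used as markers of extracellular vesicles.

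Total counts ran from 3058690 to 4548795 in Cited2CTL libraries and from 3500215 to 4315029 in Cited2CKO libraries. These are deposited counts in genes and not the number of reads sequenced, which the authors give as far higher. *Cited2* itself had 101, 171, 162, 222 and 160.2 CPM (the count of a gene relative to the normalized total of its library) in Cited2CTL replicates 1 to 5, and 3.80, 4.21, 120.1, 5.00 and 8.30 CPM in the libraries labelled CKO 1 to 5. The library labelled CKO 3 thus went against its label, with a *Cited2* level above the lowest Cited2CTL library. With this library kept, *Cited2* was at -2.51 on the log2 scale (edgeR, Benjamini-Hochberg adjusted p = 0.328). The deleted gene was therefore not called by the fit over all genes. Without the library labelled CKO 3, *Cited2* was at -4.92 (edgeR adjusted p = 1.82e-06). The differences of the 10 genes are given with and without that library. The shares over all tested genes given below were obtained with it kept in the Cited2CKO group. All 12 genes of an HSC list, among them *Kit*, *Ly6a*, *Slamf1*, *Procr* and *Mecom*, were detected, with a summed level between 2294 and 2597 CPM in Cited2CTL and between 2073 and 2368 CPM in Cited2CKO libraries. Of the markers of mature cells, *Ly6g* had no count in any library, and *Cd79a*, *Pax5*, *Cd3e*, *Cd3d* and *Cd3g* had means under 1 CPM. Other genes of the same lists were expressed, with Cited2CTL means of 56.4 ± 11.7 CPM for *Cd79b*, 69.7 ± 18.6 CPM for *Nkg7*, 39.1 ± 21.8 CPM for *S100a8*, 37.8 ± 35.1 CPM for *Ngp* and 48.1 ± 79.3 CPM for *Mpo* (SD, n = 5).

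The DNA before the start site is shown for 4 of the genes, picked after their sequences and levels were seen, as examples of a stretch poor in CpG (*Cd53*, the gene with the largest difference, and *Tspan32*) and of one rich in CpG (*Cd81*, the neighbour of *Tspan32*, and *Tspan13*). All stretches are the 250 bases before the start of the RefSeq gene on GRCm38.p6, written 5′ to 3′ on the strand of the gene. Capitals mark matches on either strand to the letters TGTGGT (core of the RUNX motif) or GGGCGG (GC box), none of which overlapped another. The stretch before *Cd53* lies at chr3:106790150-106790399 (minus strand), that before *Tspan32* at chr7:143004796-143005045 (plus strand), that before *Cd81* at chr7:143052500-143052749 (plus strand) and that before *Tspan13* at chr12:36042479-36042728 (minus strand).
Cd53: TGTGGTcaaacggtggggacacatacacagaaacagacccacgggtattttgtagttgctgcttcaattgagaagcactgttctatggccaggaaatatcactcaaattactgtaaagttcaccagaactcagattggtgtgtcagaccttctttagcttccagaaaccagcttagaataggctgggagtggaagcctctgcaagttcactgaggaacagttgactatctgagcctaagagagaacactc
Tspan32: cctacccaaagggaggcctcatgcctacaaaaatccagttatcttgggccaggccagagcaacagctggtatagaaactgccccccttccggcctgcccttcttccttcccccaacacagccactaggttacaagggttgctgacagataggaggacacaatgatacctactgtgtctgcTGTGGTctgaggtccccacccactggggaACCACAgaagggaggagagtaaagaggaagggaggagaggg
Cd81: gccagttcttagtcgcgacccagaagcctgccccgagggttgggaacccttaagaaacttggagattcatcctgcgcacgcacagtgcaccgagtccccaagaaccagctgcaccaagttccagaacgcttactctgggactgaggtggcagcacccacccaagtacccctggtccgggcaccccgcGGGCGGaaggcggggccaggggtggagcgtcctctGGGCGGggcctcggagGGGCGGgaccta
Tspan13: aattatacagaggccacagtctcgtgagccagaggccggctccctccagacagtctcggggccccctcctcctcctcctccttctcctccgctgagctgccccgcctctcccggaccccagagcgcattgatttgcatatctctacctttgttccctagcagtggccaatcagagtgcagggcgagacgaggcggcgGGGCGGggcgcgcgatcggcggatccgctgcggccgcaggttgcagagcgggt

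The stretches before *Cd53* and *Tspan32* held 2 and 1 CpG dinucleotides, against 16 before *Cd81*, 21 before *Tspan13* and a median of 6 over 32817 promoters. Their GC content was 45.2% before *Cd53*, 55.6% before *Tspan32*, 65.6% before *Cd81* and 66% before *Tspan13*, against a median of 52.4%. The RUNX letters occurred once before *Cd53*, 244 bases from the start, and 2 times before *Tspan32*, and were found in 14% of all promoters. GC boxes, present in 32.7% of all promoters, occurred 3 times before *Cd81* and once before *Tspan13*. *Cd37*, the other gene restricted to blood cells, had 8 CpG dinucleotides and a GC content of 58.8%, so it was not poor in CpG. Of the other letters searched on both strands, AGATAA (for GATA factors, in 9.99% of all promoters) occurred once before *Tspan32*, and GGAAGT (ETS, 19.7%), CACGTG (E-box, 6.02%), ACGTG (HIF, within some E-boxes, 16.6%), GCGGGAA (E2F, 3.82%), TATAAA (12.4%) and CAGGTG (E2A, 17.2%) occurred before none of the 4 genes printed. A match is a description of the letters and not of binding.

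*Tspan32* and *Cd81* are neighbours on chromosome 7, from 143005046 to 143019644 and from 143052739 to 143067934, with 33094 bases and no protein-coding gene between them. Per length, as TPM (counts divided by the deposited gene length and scaled to the same total in each library), *Cd81*, found on lymphocytes and many other cells, had 488, 429, 432, 433 and 405 TPM in Cited2CTL replicates 1 to 5, a mean of 437 ± 30.7 TPM (SD, n = 5). *Tspan32* followed with 386 ± 27.9 TPM, *Cd63*, a tetraspanin of late endosomes and lysosomes, with 377 ± 25.7 TPM, *Tspan13* with 367 ± 41.0 TPM and *Cd9*, abundant on megakaryocytes and platelets, with 319 ± 30.0 TPM. With the deposited lengths, these 5 genes were at percentile 97.6 or higher among all tested genes in Cited2CTL HSCs. Below them were *Cd37* with 146 ± 13.0 TPM, *Cd82* with 113 ± 17.7 TPM, *Cd53* with 96.2 ± 27.95 TPM and *Cd151*, a partner of laminin-binding integrins, with 71.6 ± 7.60 TPM. *Tspan33*, which escorts the protease ADAM10 and is known from erythroid cells and activated B cells, had 13.2 ± 6.10 TPM and between 6 and 66 counts per library.

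**Figure D1:**
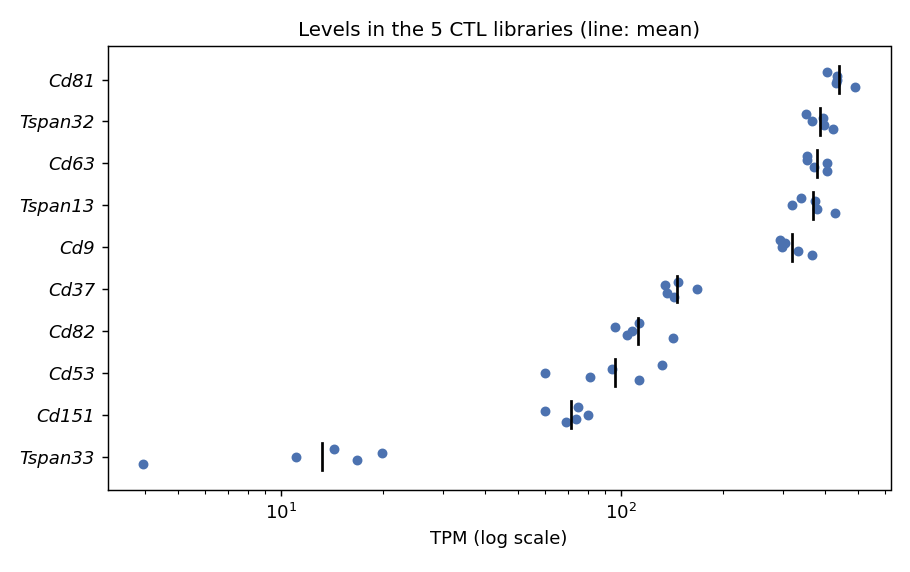
Level of each of the 10 genes in the 5 Cited2CTL libraries, as TPM on a log axis, with each point a library and the line the mean. With the deposited lengths, the 5 genes from Cd81 to Cd9 sit together above the range of Cd37, and Tspan33 sits below all others.

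Between neighbours in this order, the ranges of the Cited2CTL libraries were apart only for *Cd9* over *Cd37* and for *Cd151* over *Tspan33*. Compared within libraries (two-sided exact sign-flip permutation test on log2 TPM, n = 5, smallest possible p = 0.0625), *Cd81* over *Tspan32*, *Tspan13* over *Cd9*, *Cd9* over *Cd37*, *Cd37* over *Cd82* and *Cd151* over *Tspan33* held in 5 of 5 libraries, each with p = 0.0625, adjusted 0.112 over the 9 pairs. With 5 libraries no pair could reach 0.05. *Tspan32* and *Cd63* (exact p = 0.562), *Cd63* and *Tspan13* (exact p = 0.875), *Cd82* and *Cd53* (exact p = 0.188) and *Cd53* and *Cd151* (exact p = 0.188) did not keep 1 order in every library. The order also rested on the length of each gene. The deposited length of *Cd53* was 2802 bases, while its longest GENCODE transcript has 1742 bases, and with the longest transcripts as lengths 3 of the 10 genes kept their rank. *Cd53* then had 182 TPM and moved up to the fifth place, *Cd63* had 159 TPM and left the top 5, *Cd37* had 82.8 TPM, and *Tspan32* had 193 TPM and took the fourth place.

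*Cd53*, a tetraspanin found on nearly all leukocytes, had the largest log2 fold change of the 10 genes and was higher in Cited2CKO HSCs. The gene lies on the minus strand of chromosome 3 from 106759921 to 106790149 (GRCm38). In Cited2CTL replicates 1 to 5 it had 137, 95.7, 70.6, 109.7 and 153 CPM, and in the libraries labelled CKO 1 to 5 308, 319, 152, 305 and 335 CPM. The library labelled CKO 3 was close to the highest Cited2CTL library, so the groups overlapped by that library, while the other 4 Cited2CKO libraries lay together between 305 and 335 CPM, above every Cited2CTL library. The means were 113 ± 32.7 and 284 ± 74.4 CPM (SD, n = 5 each). By edgeR's quasi-likelihood fit the level was 2.50-fold higher in Cited2CKO, a log2 fold change of 1.32 (standard error 0.22, 95% interval 0.86 to 1.79). In bulk samples, more or fewer cells of a type and more or less RNA per cell cannot be told apart. *Cd53* was the 1 gene of the 10 called at an adjusted p under 0.05 and a fold change above 20%, a rule that called 0.226% of the 14165 tested genes (0.12% higher and 0.106% lower). Since *Cd53* was picked from this comparison, nothing is read from that count.

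**Figure D2:**
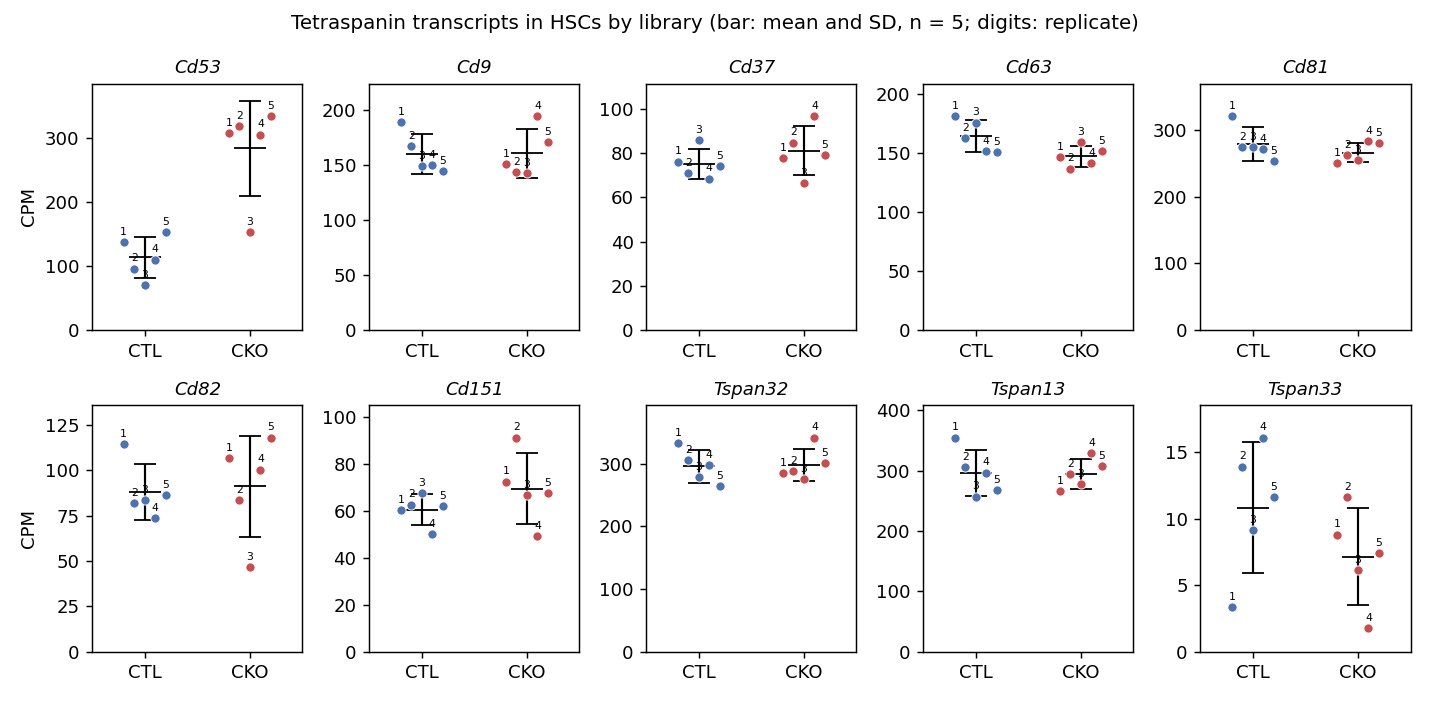
Level of each of the 10 genes in every library, in CPM from 0 on the y axis, with the points numbered by replicate and bars giving the mean and SD (n = 5). For Cd53 the Cited2CKO libraries other than the library labelled CKO 3 lie between 305 and 335 CPM, and for the other 9 genes the points of both genotypes overlap.

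Relative to the Cited2CTL mean, *Cd53* was at 1.35 times in the library labelled CKO 3, where *Cited2* was at 0.736 times its Cited2CTL mean, and at 2.80 times on average in the other 4 (317 ± 13.3 CPM; SD, n = 4). Without that library the log2 fold change was 1.48. Over all alternatives it ranged from 1.19 to 1.48. The call was lost with limma-voom, in a fit that kept all genes with low counts, in another fit with a loess offset for GC and length, and when Cited2CTL replicate 1, 2, 3 or 4 or Cited2CKO replicate 1, 2 or 5 was left out. The longest *Cd53* transcript has a GC content of 40%, against a median of 48.8% over the tested genes.

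Markers of the gate and of other blood cells were examined beside *Cd53*. *Cd48*, whose product is a negative marker of the sorting gate, had 21.7, 17.9, 26.5, 14.4 and 27.4 CPM in Cited2CTL and 56.1, 45.3, 38.5, 44.4 and 60.8 CPM in Cited2CKO replicates 1 to 5. Of the 6 genes on the list of progenitor markers and genes excluded by the gate, 3 had a log2 fold change above 0 and 3 below, and *Cd48* alone was called. *Cd48* was higher without overlap between the genotypes, a pattern seen for 1.35% of all tested genes. Its log2 fold change was 1.18 (edgeR, Benjamini-Hochberg adjusted p = 0.0264). This call was not examined under the alternative fits used for *Cd53*. *Flt3* was at -0.36 on the log2 scale (edgeR adjusted p = 0.194), *Cd27* at -0.13, *Cd34* at -0.04, *Il7r* at 0.27 and *Dntt* at 1.195. The summed level of this list ranged from 644 to 748 CPM in Cited2CTL and from 633 to 714 CPM in Cited2CKO libraries. Of the monocyte and macrophage list, 6 of 7 genes were tested, all 6 had a log2 fold change above 0, and none was called. The untested gene, *Ly6c2*, went the other way, with 7.50 ± 10.9 CPM in Cited2CTL and 2.91 ± 2.53 CPM in Cited2CKO (SD, n = 5 each). *Itgam* at 0.95 (edgeR adjusted p = 0.230) and *Cd68* at 0.59 (edgeR adjusted p = 0.294) were the 2 with an unadjusted p under 0.05. Of all tested genes, 5.8% were higher at such a p. The summed level of that list ranged from 48.5 to 75.0 CPM in Cited2CTL and from 70.3 to 117 CPM in Cited2CKO libraries, and its defining markers *Csf1r* and *Adgre1* had means between 3.03 and 4.12 CPM in both genotypes. The summed B cell list ranged from 54.1 to 107 and from 56.9 to 74.0 CPM, the T and NK cell list from 76.3 to 113 and from 99.8 to 128 CPM, and the neutrophil list from 49.8 to 580 and from 56.7 to 335 CPM in Cited2CTL and Cited2CKO libraries. The neutrophil sum of 580 CPM was that of Cited2CTL replicate 5, and the next Cited2CTL library had 195 CPM. The megakaryocyte list ranged from 563 to 700 and from 578 to 722 CPM. The erythroid list ranged from 43.6 to 108 and from 42.8 to 61.5 CPM, and the endothelial list from 99.95 to 134 and from 102 to 149 CPM. The B cell, T and NK cell and endothelial sums rested mostly on *Cd79b*, *Nkg7* and *Pecam1*. Their means in Cited2CTL and Cited2CKO were 56.4 and 55.4, 69.7 and 96.4, and 94.0 and 104 CPM. *Nkg7* was at 0.47 on the log2 scale (edgeR adjusted p = 0.287). These sums are not to be read as amounts of those cells. Without the library labelled CKO 3 the mean of *Cd48* in Cited2CKO was 51.6 ± 8.11 CPM (SD, n = 4), and all 4 libraries were above the Cited2CTL range. The part of these cells, or of cells near the *Cd48* gate, in the level of *Cd53* was not tested.

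**Figure D3:**
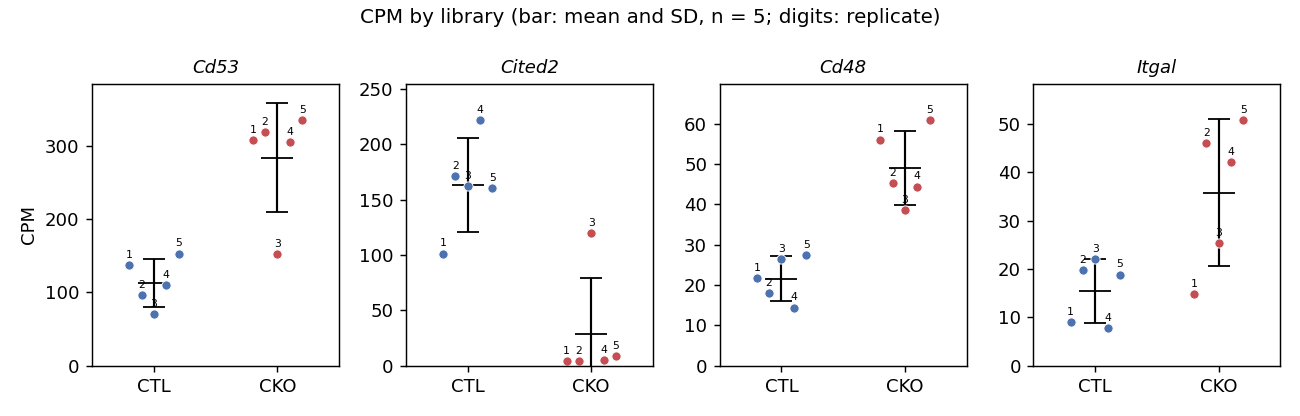
Level of Cd53, Cited2, Cd48 and Itgal in every library, in CPM from 0, with points numbered by replicate and bars giving the mean and SD (n = 5). The library labelled CKO 3 has 120.1 CPM of Cited2 and the lowest Cd53 of the Cited2CKO libraries, while its Cd48 level, 38.5 CPM, lies above all Cited2CTL libraries.

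Neither *Cd37* nor *Tspan32*, the other tetraspanins restricted to blood cells, was called. *Cd37*, a leukocyte tetraspanin most abundant on B cells, had 76.2, 71.0, 86.1, 68.5 and 74.2 CPM in Cited2CTL and 78.0, 84.9, 66.7, 97.0 and 79.3 CPM in Cited2CKO replicates 1 to 5. Both the lowest and the highest of the 10 libraries were Cited2CKO, and the log2 fold change was 0.11 (standard error 0.11, 95% interval -0.13 to 0.35). *Tspan32*, a blood-specific tetraspanin studied in T cells and platelets, had 333, 306, 279, 298 and 264 CPM in Cited2CTL and 285, 288, 276, 342 and 300.5 CPM in Cited2CKO libraries, a log2 fold change of 0.01 (standard error 0.08, 95% interval -0.16 to 0.18). Its interval lay within 0.18 of 0 on the log2 scale. With the loess offset for GC and length, *Cd37* was at 0.319 and *Tspan32* at 0.181 on the log2 scale. The *Tspan32* value with the offset lay just above the upper end of its interval (0.179). *Tspan33* had 3.34, 13.9, 9.11, 16.1 and 11.6 CPM in Cited2CTL and 8.79, 11.6, 6.15, 1.76 and 7.37 CPM in Cited2CKO libraries. Its log2 fold change of -0.60 (standard error 0.48, 95% interval -1.63 to 0.43) had the widest interval of the 10 genes, so a change of that size was not detectable given the spread between these libraries.

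Of the broadly expressed tetraspanins, *Cd81* and *Cd9* had log2 fold changes near 0. *Cd81* had 321, 275, 275, 272 and 253 CPM in Cited2CTL and 251, 262, 254, 283 and 279.7 CPM in Cited2CKO replicates 1 to 5, a log2 fold change of -0.07 (standard error 0.07, 95% interval -0.22 to 0.09). *Cd9* had 189, 167, 149, 149.7 and 144 CPM in Cited2CTL and 151, 143, 143, 195 and 171 CPM in Cited2CKO libraries, with a log2 fold change of 0.01 (standard error 0.10, 95% interval -0.22 to 0.23). For both genes the values of the genotypes overlapped. *Cd63* had 182, 162, 176, 152 and 151 CPM in Cited2CTL and 147, 137, 159, 142 and 152 CPM in Cited2CKO libraries. Its Cited2CKO libraries lay in the lower part of the Cited2CTL range or just under it, with a log2 fold change of -0.16 (standard error 0.08, 95% interval -0.33 to 0.01). With the GC and length offset this value was 0.05, on the other side of 0.

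*Cd82*, which restrains integrin and growth factor receptor signals and is known as a suppressor of metastasis, had 114, 81.8, 83.8, 73.6 and 86.2 CPM in Cited2CTL and 107, 83.6, 46.8, 101 and 118 CPM in Cited2CKO replicates 1 to 5. Of all 10 libraries the one labelled CKO 3 was lowest, and the log2 fold change was 0.06 (standard error 0.20, 95% interval -0.38 to 0.49) with it and 0.22 without it. *Cd151* had 60.2, 62.6, 67.6, 49.97 and 62.1 CPM in Cited2CTL and 72.5, 91.3, 66.7, 49.1 and 67.5 CPM in Cited2CKO libraries, with both the highest and the lowest library in Cited2CKO, and a log2 fold change of 0.20 (standard error 0.15, 95% interval -0.12 to 0.52). *Tspan13*, whose function in blood cells is little known, had 355, 307, 257, 297 and 268 CPM in Cited2CTL and 266, 294, 278, 329.5 and 307 CPM in Cited2CKO libraries, a log2 fold change of -0.01 (standard error 0.09, 95% interval -0.20 to 0.18). In both genes the libraries of the genotypes overlapped.

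Over the 10 genes, all of which passed the filter on low counts, the log2 fold change was above 0 for 6 and below 0 for 4, with a median of 0.01, as over all 14165 tested genes (median 0.01, above 0 for 51%). None of the 10 had non-overlapping groups, a pattern seen for 3.33% of all tested genes (1.35% higher and 1.98% lower). Apart from *Cd53* and the weakly expressed *Tspan33*, the log2 fold changes of the other 8 genes lay between -0.16 and 0.20, and their 95% intervals between -0.38 and 0.52. Without the library labelled CKO 3, *Cd9* was at 0.05, *Cd37* at 0.17, *Cd63* at -0.19, *Cd81* at -0.05, *Cd151* at 0.21, *Tspan32* at 0.04, *Tspan13* at 0.01 and *Tspan33* at -0.55 on the log2 scale.

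The spread between mice of 1 genotype differed among the genes. For *Cd53* the coefficient of variation in CPM was 28.9% among Cited2CTL and 26.2% among Cited2CKO libraries, against medians of 13.5% and 15.3% over genes of at least 10 CPM. Without the library labelled CKO 3 it was 4.21% among the other 4 Cited2CKO libraries, so the Cited2CKO value rested on that library. *Cd81* varied by 9.05% and 5.49%, *Tspan32* by 8.96% and 8.72%, *Cd82* by 17.6% and 30.5% (14.1% in Cited2CKO without the library labelled CKO 3), and the weakly expressed *Tspan33* by 45.5% and 50.9%. No library was highest for all genes. Cited2CTL replicate 1 was the highest library for *Cd63*, *Cd81* and *Tspan13*, Cited2CKO replicate 4 for *Cd9*, *Cd37* and *Tspan32*, and the library labelled CKO 3 the lowest for *Cd9*, *Cd37* and *Cd82*.

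The summed level of the tetraspanin family differed between the genotypes by less than the spread between mice. The table held 31 tetraspanin genes, with a summed level of 3433 ± 164 TPM in Cited2CTL and 3473 ± 191 TPM in Cited2CKO HSCs (SD, n = 5 each). The 10 genes made up 67.7 ± 1.10% of it in Cited2CTL and 69.9 ± 1.54% in Cited2CKO. With the deposited lengths, *Cd53* made up 2.80 ± 0.812% of all tetraspanin transcripts in Cited2CTL and 6.86 ± 1.58% in Cited2CKO. The size of each share rests on these lengths, 2802 bases for *Cd53* against 1742 for its longest GENCODE transcript. The *Cd53* share was 3.05, 2.34, 1.82, 2.80 and 3.99% in Cited2CTL replicates 1 to 5 and 7.63, 7.82, 4.08, 7.08 and 7.70% in the libraries labelled CKO 1 to 5. Again the library nearest to the Cited2CTL range was the one labelled CKO 3.

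**Figure D4:**
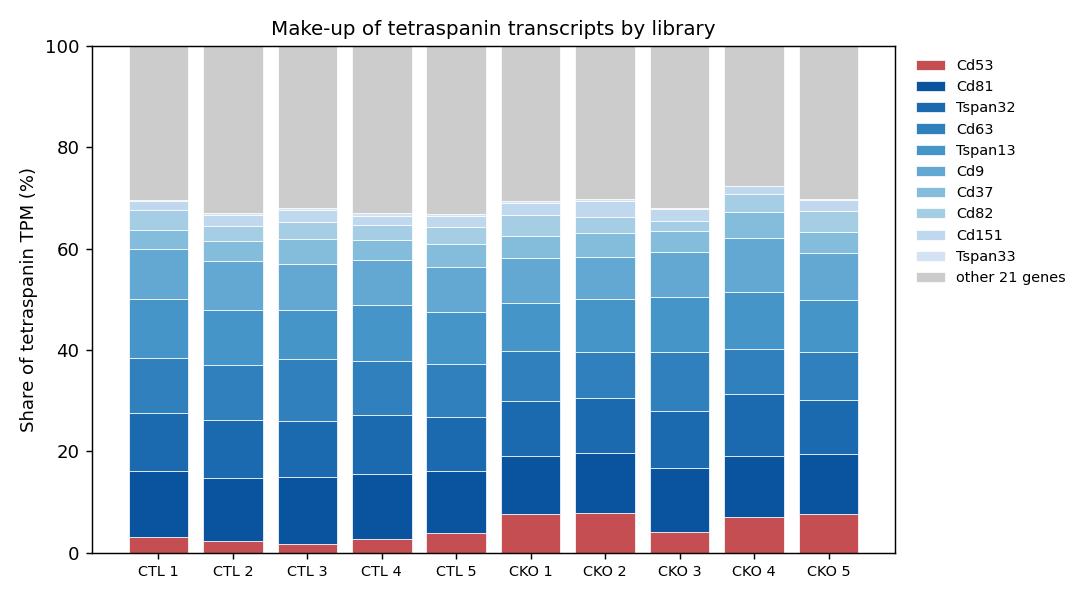
Share of each of the 10 genes in the summed TPM (deposited gene lengths) of all 31 tetraspanin genes, one bar per library, with the other 21 genes in grey. The Cd53 segment is at most 3.99% in Cited2CTL libraries, 4.08% in the library labelled CKO 3 and between 7.08% and 7.82% in the other Cited2CKO libraries.

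Of the 21 tetraspanin genes outside the 10, 14 were tested, with 6 log2 fold changes above 0 and 8 below, a median of -0.08 and none called by edgeR. The other 7 had at most 2.39 TPM in Cited2CTL HSCs. At an unadjusted p under 0.05, 2 of the 14, *Tspan3* and *Tspan9*, were lower, while 7.08% of all tested genes were lower at such a p. *Tspan3*, a broadly expressed tetraspanin, had 222, 203, 189, 199 and 192 CPM in Cited2CTL and 164, 161, 180.3, 177 and 177 CPM in Cited2CKO replicates 1 to 5. All Cited2CKO libraries lay below all Cited2CTL libraries, a pattern seen for 1.98% of all tested genes. The log2 fold change of *Tspan3* was -0.22 (edgeR, Benjamini-Hochberg adjusted p = 0.188), which did not pass the threshold. *Tspan9* had 17.1 ± 4.53 CPM in Cited2CTL and 9.52 ± 3.33 CPM in Cited2CKO HSCs (SD, n = 5 each), which is -0.84 on the log2 scale (edgeR adjusted p = 0.254). Of the other tetraspanins with the highest mean levels over all 10 libraries, *Tspan4* had a log2 fold change of -0.15, *Tspan14* -0.12, *Tspan31* -0.05, *Tspan6* 0.27, *Tspan5* 0.12, *Tspan8* 0.69 and *Tspan2* 0.22, with edgeR adjusted p between 0.507 and 0.876. *Tspan4* lies 3766 bases from *Cd151* and shares 292 exon bases with *Chid1* on the opposite strand, and *Tspan31* shares 641 with *Cdk4*. *Cd37* likewise shares 13 exon bases with *Tead2* and *Cd81* 104 with *R74862*, and the use of strand in counting is not given in the sources used here.

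**Figure D5:**
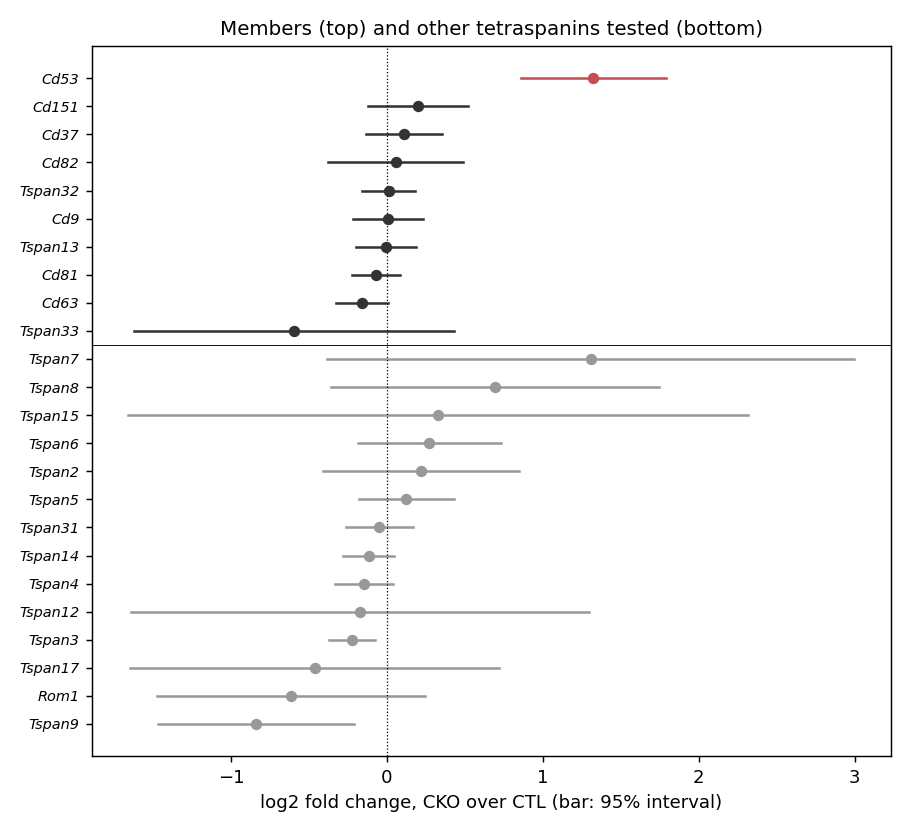
Log2 fold change of Cited2CKO over Cited2CTL HSCs for the 10 genes (above the line) and the other 14 tetraspanin genes tested (below), with points the estimates and bars 95% intervals derived from the edgeR test. The interval of Cd53 runs from 0.86 to 1.79, and those of Tspan3 and Tspan9 are the only others that lie on 1 side of 0.

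*Tspan33* belongs to the TspanC8 group, whose members bring ADAM10, the sheddase that cleaves Notch receptors, to the cell surface. In Cited2CTL HSCs most transcripts of the group came from *Tspan14* with 189 ± 4.82 TPM and *Tspan5* with 30.8 ± 3.48 TPM (SD, n = 5 each). *Tspan33* had 13.2 TPM, *Tspan17* 11.8 TPM, *Tspan15* 1.76 TPM and *Tspan10* 0.386 TPM. The 6 genes summed to 247 ± 14.4 TPM in Cited2CTL and 227 ± 24.1 TPM in Cited2CKO HSCs, and *Adam10* had 219 ± 16.6 and 214 ± 28.1 TPM (edgeR, Benjamini-Hochberg adjusted p = 0.937). *Tspan33* was thus a small part of the TspanC8 transcripts in these cells.

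Among the partners that tetraspanins gather, 44 of 48 listed genes were tested, 28 with a log2 fold change above 0 and 16 below, a median of 0.04, and none was called by edgeR. At an unadjusted p under 0.05, 2 were higher and 5 lower, near the share over all tested genes, of which 12.9% had such a p (5.8% higher and 7.08% lower). Of the 10 integrin genes, 9 had a log2 fold change above 0, against 51% of all tested genes, and none was called. The 2 partners higher at such a p were the integrin genes *Itgal* and *Itga6*. *Itga6* was at 0.44 on the log2 scale (edgeR, Benjamini-Hochberg adjusted p = 0.313). *Itgal*, the alpha chain of the leukocyte integrin LFA-1, had 9.03, 19.7, 22.0, 7.80 and 18.8 CPM in Cited2CTL and 14.7, 46.0, 25.3, 42.0 and 50.7 CPM in Cited2CKO replicates 1 to 5, with overlap between the genotypes. It was 1.201 higher on the log2 scale (edgeR, Benjamini-Hochberg adjusted p = 0.176), and DESeq2's Wald test alone called it (adjusted p = 0.0465, against 0.120 to 0.420 under the other alternatives).

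The other partners with the smallest p were lower in Cited2CKO HSCs and did not pass the threshold. *Zdhhc4*, from a family of palmitoyltransferases, had a log2 fold change of -0.35 (edgeR, Benjamini-Hochberg adjusted p = 0.187). *Ezr*, which encodes ezrin, a linker of membrane proteins to actin, had -0.33 (edgeR adjusted p = 0.207). For both genes all Cited2CKO libraries lay below all Cited2CTL libraries, as for 1.98% of all tested genes. *Notch2*, a substrate of ADAM10, had -0.28 (edgeR adjusted p = 0.221), and *Kit*, the stem cell factor receptor, had -0.21 (edgeR adjusted p = 0.290). Without the library labelled CKO 3, *Zdhhc4* was at -0.35, *Ezr* at -0.39, *Notch2* at -0.22, *Kit* at -0.21, *Itgal* at 1.31 and *Tspan3* at -0.24 on the log2 scale, and none was called. *Igsf8*, an immunoglobulin superfamily partner of *Cd9* and *Cd81*, had 14.2 ± 3.01 TPM in Cited2CTL and 17.4 ± 2.29 TPM in Cited2CKO HSCs (SD, n = 5 each).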

How the data were processed

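RNA was sequenced from HSCs of 5 Cited2CTL and 5 Cited2CKO mice, which were grouped by the genotype in the labels. Reads were mapped by the authors to GRCm38 (HISAT2) and summed per gene (Rsubread). The deposited table holds raw counts by gene symbol and, beside it, gene lengths in bases. Annotation, use of strand and handling of multi-mapping reads are not given in the sources used here. Depth limits the precision of genes with few counts.

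The 10 genes and the lists of other tetraspanins, partners and cell type markers were chosen with earlier results of these data known. Genes kept by filterByExpr (14165) were compared between genotypes in R 4.3.3 by the quasi-likelihood test of edgeR 4.0.16 (TMM normalization, robust fit, genotype as the only term). A gene was called at a Benjamini-Hochberg adjusted p under 0.05 if its fold change was also above 20%. The common biological coefficient of variation was 25.3%. TPM came from counts and deposited lengths, and log2 TPM used a pseudocount of 0.1. The genes named were all 10 tetraspanins, the 8 other tetraspanins with the highest mean TPM over all 10 libraries, the 5 partner genes with the smallest p, tetraspanins or overlapping genes next to them, and *Cited2*. *Tspan9*, the remaining TspanC8 genes, *Adam10*, *Igsf8*, *Itga6* and the marker genes were picked once their values were known. Some genes of the lists are not reported here. Promoter stretches came from RefSeq (GRCm38.p6), where all 10 genes matched, and positions, overlaps and transcript lengths from GENCODE.

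Alternatives were DESeq2 1.42.0, limma-voom (limma 3.58.1), size factors of DESeq2, no low-count filter, a minimum of 10 counts per library, the replicate number as a block, a loess offset for GC and length (span 50%), *Xist* as a covariate, other thresholds and each library left out in turn. A genotype effect that tracks GC or length would be taken out by the offset as well. The scripts were tested on simulated data.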

Additional observations from a re-analysis of the deposited data

Results flagged for a closer look

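Of 48 sets of 5 libraries examined for a single library far from the others (Dixon's test at a critical value of 0.71), 4 stood out, where about 2.4 would by chance. Among Cited2CKO libraries, *Cd53* was low in the library labelled CKO 3, at 152 CPM against 305 CPM in the nearest library. *Cited2* was high in the same library, at 120.1 CPM against 8.30 CPM in the nearest. *Tspan14* was low there too, at 149 CPM against 186 CPM. *Kit* was high in Cited2CKO replicate 4, at 568 CPM against 493 CPM.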

How the results depend on the processing

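*Cd53* was higher in Cited2CKO HSCs under all 18 alternative fits and was called in 8. No tetraspanin among the 10 (0) was called with limma-voom, without a filter on low counts, with the GC and length offset or at an adjusted p under 0.01, and leaving out each library gave 0 to 1, with the call lost without Cited2CTL replicate 1, 2, 3 or 4 or Cited2CKO replicate 1, 2 or 5. Genes called higher numbered 147 with DESeq2, 5 with the offset, 5 at an adjusted p under 0.01 and 5 to 27 with a library left out, the highest without the library labelled CKO 3. Genes called lower numbered 175, 3, 3 and 3 to 18. With the replicate block 15 genes were called higher and 9 lower. *Cd53* was called in that fit too (1 of the 10 genes). Same-numbered libraries correlated between -0.095 and 0.21, with each gene centred within its genotype. The best-correlated Cited2CKO library carried the same number only for Cited2CTL replicate 5. These correlations cannot decide whether the replicate numbers pair the libraries. DESeq2 called 1 partner gene, *Itgal*. *Tspan4* turned to 0.093 on the log2 scale with the offset. With the longest transcripts as lengths 3 of the 10 genes kept their rank in Cited2CTL HSCs, and 8 to 10 did with a library left out. Besides *Cd53*, the direction held under every alternative for *Cd37*, *Cd81* and *Cd151*, and under all 17 that tested *Tspan33*. The minimum of 10 counts per library left *Tspan33* out, which had 6 counts in its lowest library. The direction turned under at least 1 alternative for *Cd9*, *Cd63*, *Cd82*, *Tspan32* and *Tspan13*, whose values stayed within 0.24 of 0. The causes were not tested.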
